A study of Mus musculus with 8 samples.

Results

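The transcripts described here are those of 6 mouse genes, Procr, Esam, Cd34, Cd27, Tek and Angpt1, chosen by name out of 27318 gene identifiers in the count tables. 5 of them encode surface proteins by which blood stem cells and progenitors are told apart, and Angpt1 encodes the secreted ligand of the receptor that Tek encodes. They were read in single cells of the LSK gate of bone marrow, which takes cells positive for Sca1 and cKit and so contains blood stem cells with the progenitors nearest to them. All cells came from Dach1-GFP mice aged 8 to 16 weeks, which carry the Dach1bio-GFP locus: a biotin tag precedes the stop codon in exon 12 of Dach1, an IRES and GFP follow it, and the neomycin cassette was removed with Flpe. GFP is therefore driven by the Dach1 gene itself, the line was made from 1 targeted clone of C57BL/6 embryonic stem cells, and whether the mice carried 1 or both tagged copies is not given in the sources used here. Marrow was freed of red cells, enriched for CD117 (cKit) on magnetic beads, stained for Sca1, Il7Ra, CD16/32, CD135, CD150 and CD48, and sorted as single cells into 384-well plates with the fluorescence of each cell recorded.

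The study has no treated and control samples. Within each plate, cells were ranked by a sorted protein, and the cells of the highest and lowest tercile were set against each other: Sca1-high against Sca1-low, CD48-high against CD48-low, CD150-high against CD150-low, CD135-high against CD135-low, and Dach1-GFP-low against Dach1-GFP-high cells. 8 plates served as replicates, 4 named LC (replicates 1 to 4) and 4 named LCE (replicates 5 to 8), and CD48 was recorded on the LCE plates alone. The labels do not say which or how many mice a plate holds, so the p-values speak of how plates vary, and part of that variation may be technical.

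Angiopoietin 1 binds TIE2, the receptor tyrosine kinase encoded by Tek, which is best known from endothelium and is also found on blood stem cells. Procr encodes EPCR, the endothelial receptor of protein C, and Cd27 a receptor of the TNF receptor family whose ligand is CD70. Esam encodes an adhesion molecule of the immunoglobulin superfamily found at endothelial junctions and on blood stem cells, and Cd34 a sialomucin of endothelium and blood progenitors that can bind selectins. In mouse marrow, high EPCR and ESAM are used to enrich long-term stem cells within the LSK gate, and CD34 and CD27 to separate long-term stem cells from the progenitors that follow them. CD150 with absence of CD48 and CD135 is the usual surface code of the stem cell, and CD135, the FLT3 receptor, marks multipotent and lymphoid-primed progenitors.

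The start regions of 4 of the 6 genes were at hand and are shown because Cd34 and Cd27 rose together with CD135 in the results that follow, while Procr did not and Tek was lower. Each run is the RefSeq window of GRCm38.p6 from 250 bases before to 50 bases after the gene's start, 5′ to 3′ on the gene's strand, with matches to the 4 motifs searched in capitals. The windows are chr2:155750967-155751266 (plus strand) for Procr, chr1:194938571-194938870 (plus strand) for Cd34, chr6:125236978-125237277 (minus strand) for Cd27 and chr4:94739039-94739338 (plus strand) for Tek.
Procr: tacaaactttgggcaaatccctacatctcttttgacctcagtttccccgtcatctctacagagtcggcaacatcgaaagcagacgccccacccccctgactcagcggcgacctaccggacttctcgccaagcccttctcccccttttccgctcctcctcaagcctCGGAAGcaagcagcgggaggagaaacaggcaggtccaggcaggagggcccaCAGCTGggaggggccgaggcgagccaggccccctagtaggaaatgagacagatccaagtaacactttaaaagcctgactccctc
Cd34: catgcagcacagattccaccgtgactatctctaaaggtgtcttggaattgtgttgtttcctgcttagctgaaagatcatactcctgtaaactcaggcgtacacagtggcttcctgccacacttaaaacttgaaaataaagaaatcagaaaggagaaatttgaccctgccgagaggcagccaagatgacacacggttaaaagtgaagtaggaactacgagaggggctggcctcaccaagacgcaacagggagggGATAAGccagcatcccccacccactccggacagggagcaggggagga
Cd27: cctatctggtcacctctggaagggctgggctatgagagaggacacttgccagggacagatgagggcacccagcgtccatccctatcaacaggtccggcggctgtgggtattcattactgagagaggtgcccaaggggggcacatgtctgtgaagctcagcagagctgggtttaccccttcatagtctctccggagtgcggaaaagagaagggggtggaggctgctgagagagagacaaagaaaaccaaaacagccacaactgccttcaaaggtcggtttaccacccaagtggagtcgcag
Tek: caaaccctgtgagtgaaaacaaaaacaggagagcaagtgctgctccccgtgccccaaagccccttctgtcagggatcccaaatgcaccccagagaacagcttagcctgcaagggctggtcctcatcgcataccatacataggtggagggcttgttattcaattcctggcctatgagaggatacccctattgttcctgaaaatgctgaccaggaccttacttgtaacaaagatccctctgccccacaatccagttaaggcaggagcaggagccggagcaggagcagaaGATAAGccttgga
The motifs, searched on both strands, were the GATA motif GATAAG, the E-box CAGCTG, the RUNX motif TGTGGT and the ETS motif CGGAAG, and no match overlaps another in these windows. GATAAG is at bases 254 to 259 of the Cd34 and 288 to 293 of the Tek window, in both after the start, and 7.44% of 32851 such windows hold it. The Procr window holds CGGAAG at bases 166 to 171 and CAGCTG at bases 217 to 222, which 16.9% and 16.3% of all windows hold. The Cd27 window holds none of the 4 motifs, and TGTGGT, which is in 16.8% of windows, is in none of the 4 sequences. The share of G and C was 58.3% for Procr, 56% for Cd27, 52% for Tek and 50% for Cd34, against a median of 52.7% over all windows.

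After filtering, 2718 cells remained, 336 to 342 per plate. Total counts per plate ranged from 4382495 to 5192543 on the LC plates and from 2100839 to 2757276 on the LCE plates. Median counts per cell ranged from 5672 to 13398 over the plates, and wells that got no cell held at most 77 counts. The genes of the sorted proteins followed their proteins: Ly6a averaged 117 ± 12.7 CPM in Sca1-high and 30.8 ± 11.9 CPM in Sca1-low cells, and Flt3 312 CPM with high CD135 against 77.5 CPM with low CD135. Cd48 averaged 139 CPM in CD48-high and 51.6 CPM in CD48-low cells, Slamf1 (the gene of CD150) 4.58 and 0.675 CPM in CD150-high and CD150-low cells, and Dach1 12.6 and 51.8 CPM in GFP-low and GFP-high cells. CPM is the count of a gene scaled to the total of the cells summed for that plate and group. The value after ± is the SD over plates for CPM and the standard error for a log2 difference. In sums of this kind, fewer cells that make an RNA and less RNA in each cell cannot be told apart. The cells carried the gate's defining transcripts, with Kit counts in 2166 cells, while of the 10 genes of the endothelial list Cdh5, Kdr, Cldn5, Sox17 and Sox18 had 2, 7, 4, 2 and 6 counts in all cells together and Flt1 and Plvap 40 and 37. The other 3, Pecam1, Tie1 and Emcn, which blood progenitors are known to carry too, had 1248 counts in 812 cells, 822 in 585 and 349 in 261. The list summed to a median of 85.5 CPM in GFP-low cells (57.8 to 104) and of 108 CPM in GFP-high cells (79.2 to 130), and its part in the results was not tested.

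All 6 transcripts were detected, at very different depth. Cd34 had 10177 counts and was found in 88.1% of cells, Cd27 had 5082 counts in 74.0% of cells, and Angpt1 3583 counts in 59.9%. Procr had 545 counts in 15.05% of cells, Esam 234 counts in 5.74% and Tek 79 counts in 2.17%. Over whole plates Cd34 ranged from 309 to 421 CPM, Cd27 from 158 to 227, Angpt1 from 97.2 to 164, Procr from 12.9 to 30.3, Esam from 5.44 to 10.7 and Tek from 1.43 to 4.34 CPM. These are counts of 3′ ends with no scaling for length or capture, so levels are not compared between genes. 62 of the 79 Tek counts were on the LC plates, and Tek was too low for the gene-wide test in every comparison. Esam was too low in the Sca1, CD48 and CD135 comparisons. By CD150, by GFP and where 2 proteins were fitted together it passed the filter on low counts through the cells in which it is high. Esam is therefore left out of the counts of members called in what follows, and its p-values come from edgeR's test with no filter on low counts or from an exact test. Procr, Cd34, Cd27 and Angpt1 passed the filter in all 5 comparisons.

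The 6 transcripts did not move as one group. Low Dach1-GFP went with less Angpt1 and Procr, high CD135 with more Cd34 and Cd27 and less Angpt1, high CD48 with less Procr and Angpt1, and high Sca1 with more Procr, Cd27, Angpt1 and Cd34. With no filter on low counts, Esam was lower at low GFP and higher at high CD150. By edgeR's quasi-likelihood test with Benjamini-Hochberg adjustment at 0.05, 4 of 4 tested members passed by Sca1, where 11.7% of all tested genes passed, and 2 of 4 by CD48, where 11.3% passed. 3 of 4 passed by CD135 (11.1%), 2 of 4 by GFP (7.89%) and 0 of 4 by CD150 (2.03%), also 0 with DESeq2, where Cd34 and Cd27 had an unadjusted edgeR p under 0.05. The plates' values of the terciles did not overlap for Angpt1 by CD48 (9.77% of genes), for Cd34 by CD135 (0.462%), and for Esam and Angpt1 by GFP (0.794%). No member was free of overlap by Sca1 (0.197%) or CD150 (0.0771%). The 5 comparisons use the same cells, so they are not independent of each other, and the ranks are related: the median rank correlation within plates was -0.517 between CD135 and GFP, -0.363 between Sca1 and CD48, -0.325 between CD150 and CD135 and 0.326 between CD48 and CD150.

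**Figure D1:**
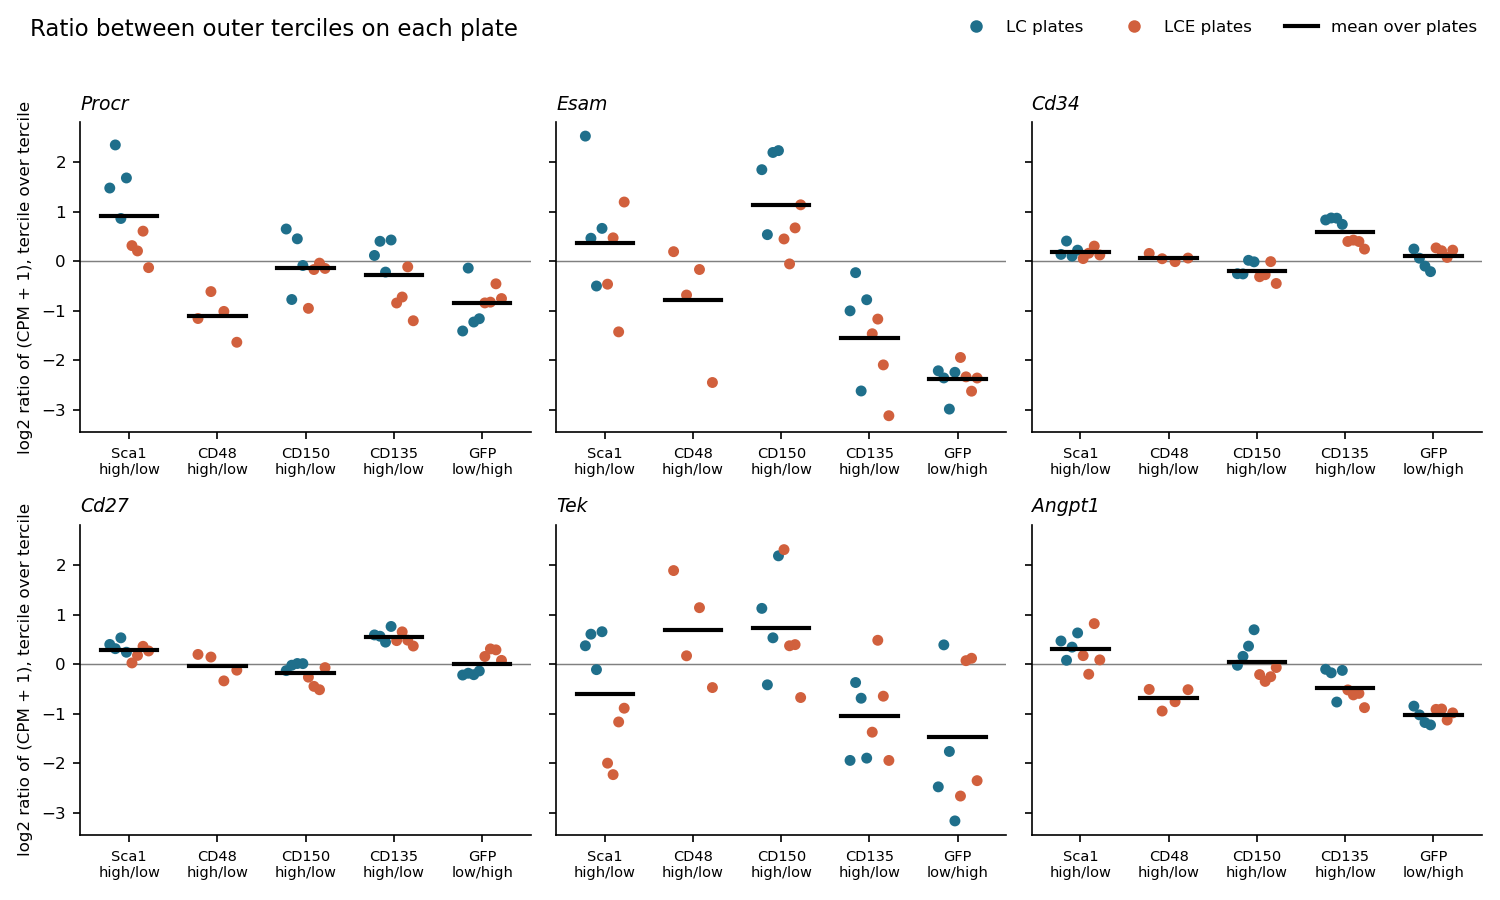
Log2 ratio of each member between the outer terciles of each plate (CPM plus 1), high over low for Sca1, CD48, CD150 and CD135 and low over high for GFP, with 1 point per plate and a line at the mean over plates. Esam and Angpt1 lie below 0 on every plate by GFP, Cd34 and Cd27 lie above 0 on every plate by CD135, and Tek scatters on both sides of 0 in all 5 comparisons.

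Cells with transcripts of other lineages and depth per cell also varied with these ranks. 83 of the 2718 cells (3.05%) had at least 5 counts in each of 2 or more genes of 1 mature lineage list, 42 of them for the B cell list. They made up 6.08% of GFP-low and 2.10% of GFP-high cells, 0.774% of CD135-high and 6.31% of CD135-low cells, and 0.996% of Sca1-high and 5.42% of Sca1-low cells. For CD48 the shares were 4.20% of high and 1.55% of low cells, and for CD150 3.32% of high and 2.32% of low cells. Without these 83 cells each call by a single protein named above still passed, and Cd34 by GFP passed in addition (log2 difference 0.17, edgeR adjusted p = 0.0292). The 5 genes of the megakaryocyte list summed to a median of 25.6 CPM with low against 108 CPM with high GFP, 28.7 CPM with high against 98.9 CPM with low CD135, and 94.9 CPM with high against 42.5 CPM with low CD150. Of the 6 mast cell genes, the 3 found in the counts summed to a median of 33.0 CPM with low against 97.3 CPM with high GFP and 27.6 CPM with high against 104 CPM with low CD135. The 9 B cell genes ran the other way by GFP, at 276 CPM with low (28.7 to 790 over plates) against 70.9 CPM with high GFP (21.1 to 148), and were at 82.7 CPM with high against 212 CPM with low CD135, 87.5 CPM with high against 182 CPM with low Sca1 and 239 CPM with high against 109 CPM with low CD48. The part of these lists in the results was not tested. CD48-high cells were deeper than CD48-low cells on 4 of 4 plates (median 7970.25 against 4952.5 counts per cell), and Sca1-high cells were shallower than Sca1-low cells on 8 of 8 (8667 against 10827.5). CD150-high cells were deeper than CD150-low cells on 7 of 8 plates (9460 against 8812). The same held for CD135-high against CD135-low cells on 7 of 8 (9789 against 9096). GFP-low cells were deeper than GFP-high cells on 1 of 8 (8911 against 10030.5).

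Angpt1, the ligand, was lower in GFP-low than in GFP-high cells on every plate. It ranged from 68.3 to 108 CPM in GFP-low cells (median 74.5) and from 131 to 203 CPM in GFP-high cells (median 162), and the plates' values did not overlap. The means were 81.9 ± 15.9 and 167 ± 23.7 CPM in GFP-low and GFP-high cells, a log2 difference of -1.02 ± 0.08 (edgeR adjusted p = 7.31e-16). On the LC plates it was -1.06, and on the LCE plates -0.97. Over the quintiles of GFP from lowest to highest, mean Angpt1 was 80.1, 93.7, 138, 166 and 171 CPM, so most of the difference lay between the second and the fourth quintile.

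Angpt1 also went down with CD48 and with CD135. In CD48-high cells of replicates 5 to 8 it was at 125, 117, 101 and 124 CPM, and in CD48-low cells at 179, 227, 172 and 178 CPM. Every CD48-high value lay below every CD48-low value (-0.65 ± 0.11, edgeR adjusted p = 2.23e-05). By CD135 it ranged from 80.2 to 120 CPM in high cells (median 98.2) and from 86.4 to 184 CPM in low cells (median 142). The ranges overlapped, but CD135-high cells were lower on 8 of 8 plates (-0.44 ± 0.08, edgeR adjusted p = 0.000179). The lower 3 quintiles of CD135 were alike at 141, 149 and 151 CPM, and the fall was in the upper quintiles, at 123 and 90.7 CPM. On the LC plates fitted alone the CD135 difference missed the threshold (-0.29, edgeR adjusted p = 0.112).

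By Sca1, Angpt1 ranged from 119 to 160 CPM in high cells (median 154) and from 84.9 to 183 CPM in low cells (median 127). The ranges overlapped and Sca1-high cells were higher on 7 of 8 plates (0.30 ± 0.08, edgeR adjusted p = 0.00733). That call was lost with DESeq2 (adjusted p = 0.175), with cells thinned to 3000 counts (0.23, edgeR adjusted p = 0.278), on the LCE plates alone (0.533) and without replicate 4 (edgeR adjusted p = 0.0711). By CD150 the means were 139 CPM in high and 136 CPM in low cells (0.08 ± 0.09, edgeR adjusted p = 0.828). The outer CD150 quintiles were both higher than the middle one, at 148, 123, 116, 122 and 150 CPM from lowest to highest, a shape that the comparison of terciles does not test.

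Tek, the receptor of that ligand, was sparse, and its values are read with its counts. By GFP it had 9 counts in low and 51 counts in high cells over 8 plates. GFP-low cells ranged from 0 to 2.66 CPM (median 1.05, 3 plates at 0) and GFP-high cells from 1.32 to 8.28 CPM (median 4.73). The ranges overlapped, GFP-low cells were lower on 5 of 8 plates, and the mean log2 ratio of CPM plus 1 was -1.48 (exact two-sided sign-flip permutation test, p = 0.0625, smallest possible 0.0078). Where a sum held 0 counts, a floor of 3 counts stands for 1.63 to 4.59 CPM in the GFP terciles. With no filter on low counts, edgeR's test gave -2.20 for GFP (adjusted p = 0.00207).

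Tek by CD135 ranged from 0 to 2.65 CPM in high cells (median 1.25, 13 counts) and from 1.43 to 7.10 CPM in low cells (median 3.60, 41 counts). It was lower in CD135-high cells on 7 of 8 plates (mean log2 ratio -1.05, exact sign-flip permutation p = 0.0234). With no filter, edgeR's adjusted p for CD135 was 0.0767. By CD150 it had 43 counts in high and 18 counts in low cells (medians 3.27 and 1.93 CPM, mean log2 ratio 0.73, exact permutation p = 0.117). By Sca1 it had 24 counts in high and 33 in low cells (exact permutation p = 0.195), and by CD48 8 counts in high and 3 in low cells (exact permutation p = 0.375, where 4 plates allow no p under 0.125). Such exact tests were run for every member and for the genes of the sorted proteins in each comparison. Only 10 are reported, 5 each for Tek and Esam, and these p-values are not adjusted.

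Procr, the receptor of protein C, went down with CD48 and with low GFP and up with Sca1. In CD48-high cells of replicates 5 to 8 it was at 14.4, 26.6, 9.61 and 16.9 CPM, and in CD48-low cells at 33.3, 41.1, 20.4 and 54.5 CPM. The high and low values overlapped between plates, and CD48-high cells were lower on 4 of 4 plates (-1.09 ± 0.24, edgeR adjusted p = 0.00128). DESeq2 did not call this difference (-1.09, adjusted p = 0.157). The lowest CD48 quintile stood apart at 46.4 ± 20.5 CPM, and the next ones were at 27.9, 21.8, 18.8 and 17.6 CPM.

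By GFP, Procr ranged from 7.30 to 19.98 CPM in low cells (median 14.99, 110 counts) and from 16.5 to 36.2 CPM in high cells (median 21.2, 217 counts). The ranges overlapped, and GFP-low cells were lower on 8 of 8 plates (-0.88 ± 0.19, edgeR adjusted p = 0.000834). In the joint fit of both sets the difference was -0.99 on LC and -0.76 on LCE plates, and with each set fitted alone neither passed (edgeR adjusted p = 0.0576 and 0.0645). The step lay between the second and the third quintile of GFP, at 16.3 and 25.8 CPM, with 24.6 CPM in the highest.

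By Sca1, Procr ranged from 21.5 to 42.9 CPM in high cells (median 28.7) and from 7.62 to 32.6 CPM in low cells (median 13.1). The ranges overlapped and Sca1-high cells were higher on 7 of 8 plates (1.01 ± 0.20, edgeR adjusted p = 0.000193). With thinned cells no member was called by Sca1, so Procr was not called there either. In the joint fit the Sca1 difference in Procr was 1.69 ± 0.25 on the LC plates (edgeR adjusted p = 4.26e-07) and 0.22 ± 0.27 on the LCE plates (edgeR adjusted p = 0.848). The test of the difference between the sets missed the threshold (-1.47 ± 0.36, LCE minus LC, edgeR adjusted p = 0.0768) and passed without the cells of other lineages (-1.54, edgeR adjusted p = 0.036) and without replicate 3 (-1.71, edgeR adjusted p = 0.0234). Procr did not pass by CD150 (-0.16 ± 0.19, edgeR adjusted p = 0.828) or CD135 (-0.21 ± 0.20, edgeR adjusted p = 0.588).

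Cd27, the TNF receptor family member, rose with CD135 and, by less, with Sca1. By CD135 it ranged from 169 to 267 CPM in high cells (median 196) and from 111 to 201 CPM in low cells (median 136). The ranges overlapped, and CD135-high cells were higher on 8 of 8 plates (0.56 ± 0.06, edgeR adjusted p = 5.45e-09), with 0.60 on LC and 0.51 on LCE plates. The lowest CD135 quintile was at 129 ± 30.1 CPM, the next at 185 CPM, and the 3 above at 204, 215 and 215 CPM. By Sca1, Cd27 ranged from 167 to 239 CPM in high cells (median 207) and from 130 to 213 CPM in low cells (median 160), and was higher in Sca1-high cells on 8 of 8 plates (0.29 ± 0.06, edgeR adjusted p = 0.000696). The Sca1 call was lost with thinned cells (0.23, edgeR adjusted p = 0.194) and on the LCE plates alone (edgeR adjusted p = 0.311).

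Cd27 did not pass by CD48, where CD48-high cells were at 226, 221, 173 and 220 CPM and CD48-low cells at 197, 201, 219 and 239 CPM (0.03 ± 0.09, edgeR adjusted p = 0.903). It did not pass by CD150 (-0.17 ± 0.07, edgeR adjusted p = 0.291). By GFP the means were 190 ± 42.1 CPM in low and 186 ± 20.4 CPM in high cells (edgeR adjusted p = 0.993). The direction was opposite in the sets, with GFP-low cells lower on 4 of 4 LC plates (-0.17 ± 0.08, edgeR adjusted p = 0.235) and higher on 4 of 4 LCE plates (0.21 ± 0.09, edgeR adjusted p = 0.261). The test of the difference between the sets did not pass (0.38 ± 0.12, LCE minus LC, edgeR adjusted p = 0.328, unadjusted p = 0.00231). The plate level of Cd27 itself was 158 to 166 CPM on the LC and 196 to 227 CPM on the LCE plates, and this offset between the sets is removed by the plate term.

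**Figure D2:**
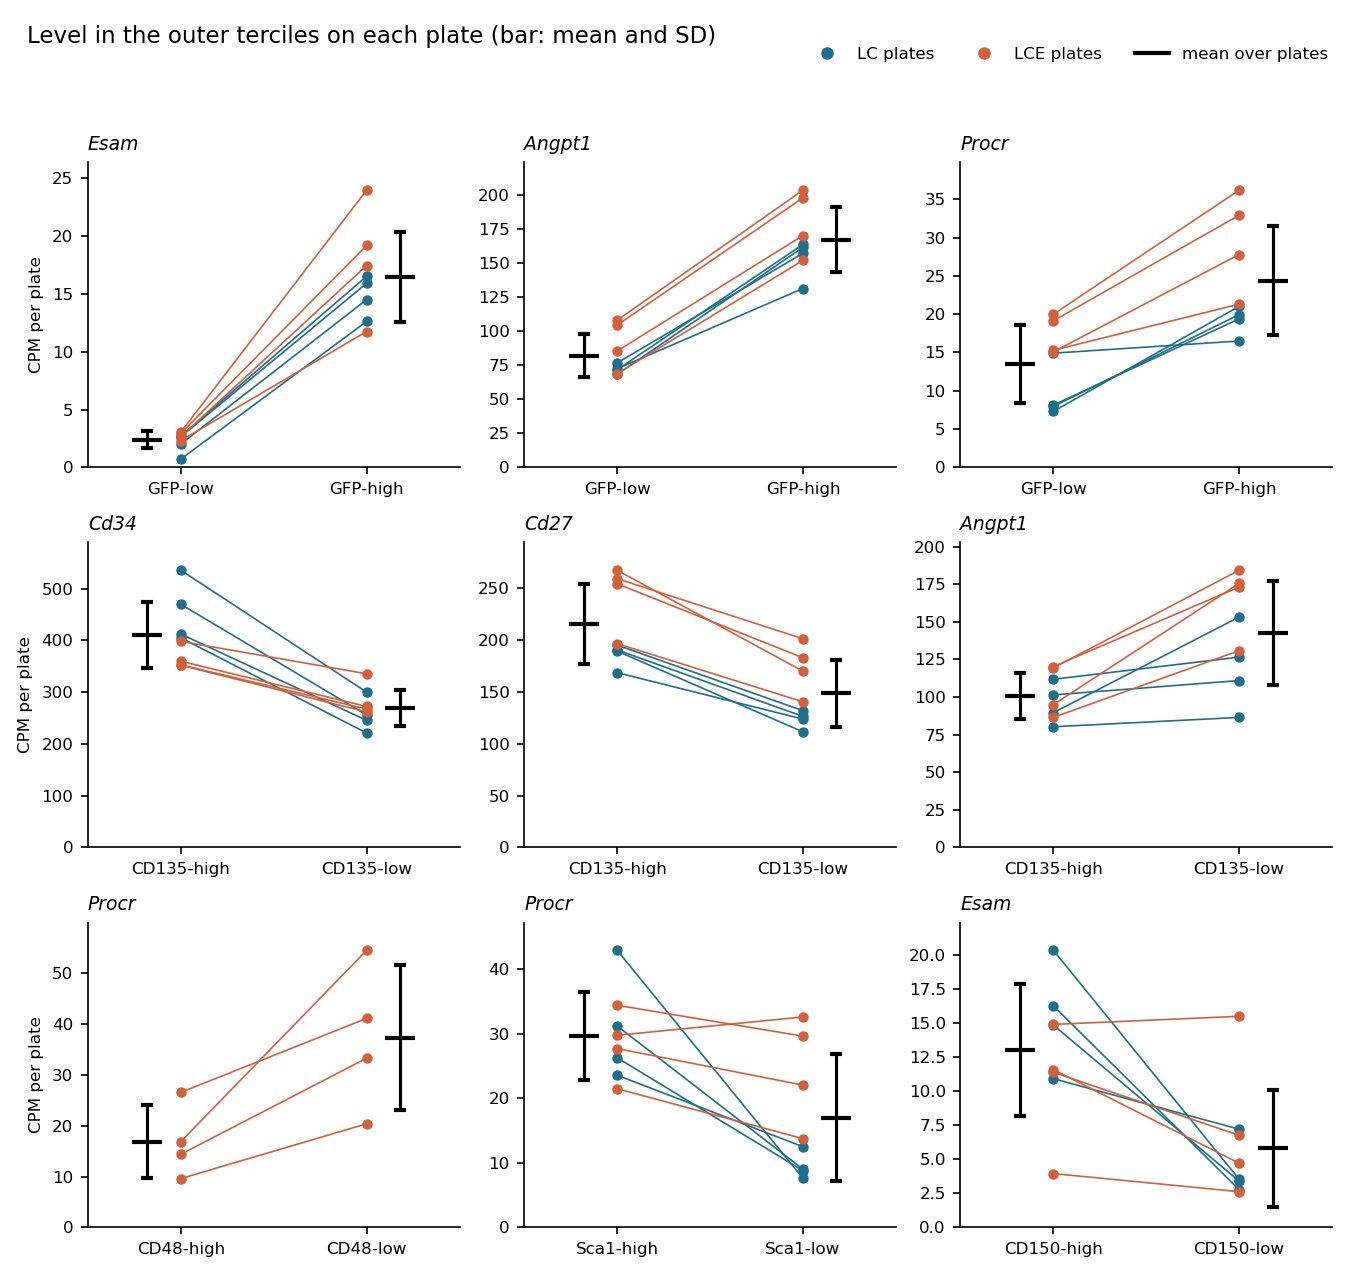
CPM on each plate in the outer terciles for 9 pairs of member and sorted protein, with lines joining the cells of 1 plate and bars for mean and SD over plates (8 plates, 4 for CD48). Esam and Angpt1 by GFP and Cd34 by CD135 show no overlap between the terciles, and Procr by Sca1 has steeper lines on each LC plate than on each LCE plate.

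Esam, the adhesion molecule, was lower with low GFP and with high CD135 and higher with high CD150. By GFP it ranged from 0.723 to 3.06 CPM in low cells (median 2.66, 21 counts) and from 11.8 to 23.98 CPM in high cells (median 16.2, 152 counts). The values did not overlap, and the mean log2 ratio of CPM plus 1 was -2.38 (exact two-sided sign-flip permutation p = 0.0078, the smallest that 8 plates allow). With no filter on low counts edgeR gave -2.72 (adjusted p = 5.78e-16), and in the joint fit the difference was -2.77 on LC and -2.65 on LCE plates. Over the GFP quintiles it went from 1.65 and 2.76 CPM in the lowest ones through 8.17 and 11.8 to 17.2 CPM in the highest.

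By CD150, Esam ranged from 3.96 to 20.4 CPM in high cells (median 13.2, 128 counts) and from 2.63 to 15.5 CPM in low cells (median 4.13, 44 counts). The ranges overlapped and CD150-high cells were higher on 7 of 8 plates (mean log2 ratio of CPM plus 1 of 1.13, exact sign-flip permutation p = 0.0156). With no filter on low counts edgeR gave 1.36 (adjusted p = 0.000378). In the joint fit the difference was 1.87 ± 0.36 on LC plates and 0.52 ± 0.46 on LCE plates, and DESeq2 did not call it (adjusted p = 0.159). Most of the Esam difference was in the highest CD150 quintile, at 16.2 ± 5.39 CPM, against 6.12, 4.89, 7.29 and 8.12 CPM below it.

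By CD135, Esam ranged from 1.33 to 8.35 CPM in high cells (median 3.68, 40 counts) and from 7.62 to 20.002 CPM in low cells (median 11.7, 111 counts). The ranges overlapped slightly, and CD135-high cells were lower on 8 of 8 plates (mean log2 ratio of CPM plus 1 -1.56, exact sign-flip permutation p = 0.0078). By CD48 it was at 7.20, 8.86, 12.0 and 3.38 CPM in high cells and at 6.17, 14.8, 13.6 and 22.9 CPM in low cells (exact permutation p = 0.375 for 4 plates). By Sca1 the medians were 9.82 CPM in high and 6.95 CPM in low cells, with Sca1-high cells higher on 5 of 8 plates (exact permutation p = 0.445).

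Cd34, the sialomucin, followed CD135 above all. It ranged from 352 to 535 CPM in CD135-high cells (median 401) and from 221 to 335 CPM in CD135-low cells (median 264). The values did not overlap (0.65 ± 0.06, edgeR adjusted p = 8.11e-12). The difference was larger on the LC plates, 0.84 ± 0.06, than on the LCE plates, 0.39 ± 0.07, and the test between the sets passed (-0.45 ± 0.09, LCE minus LC, edgeR adjusted p = 0.00369). Over the CD135 quintiles Cd34 was at 233, 325, 400, 406.9 and 411 CPM, so that it was level above the second quintile.

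By Sca1, Cd34 ranged from 314 to 472 CPM in high cells (median 384) and from 282 to 429 CPM in low cells (median 332), higher in Sca1-high cells on 8 of 8 plates (0.20 ± 0.05, edgeR adjusted p = 0.00225). The Sca1 call was lost with DESeq2 (0.18, adjusted p = 0.101), with thinned cells (0.22, edgeR adjusted p = 0.0823) and on the LCE plates alone (0.16, edgeR adjusted p = 0.313). By CD150 it ranged from 278 to 367 CPM in high cells (median 323) and from 323 to 444 CPM in low cells (median 358). It was lower in CD150-high cells on 7 of 8 plates and just missed the threshold (-0.19 ± 0.06, edgeR adjusted p = 0.074), which it passed without replicate 3 or 4 (edgeR adjusted p = 0.0336 and 0.0309). On the LCE plates alone it passed (-0.26, edgeR adjusted p = 0.0135), as did Cd27 (-0.32, edgeR adjusted p = 0.0179). The outer quintiles gave -0.33 (edgeR adjusted p = 0.00552), where the highest CD150 quintile was at 285 ± 26.9 CPM and the 4 below it at 357, 387, 373 and 370 CPM. By CD48 (0.11 ± 0.07, edgeR adjusted p = 0.357) and GFP (0.10 ± 0.05, edgeR adjusted p = 0.297) Cd34 did not pass.

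**Figure D3:**
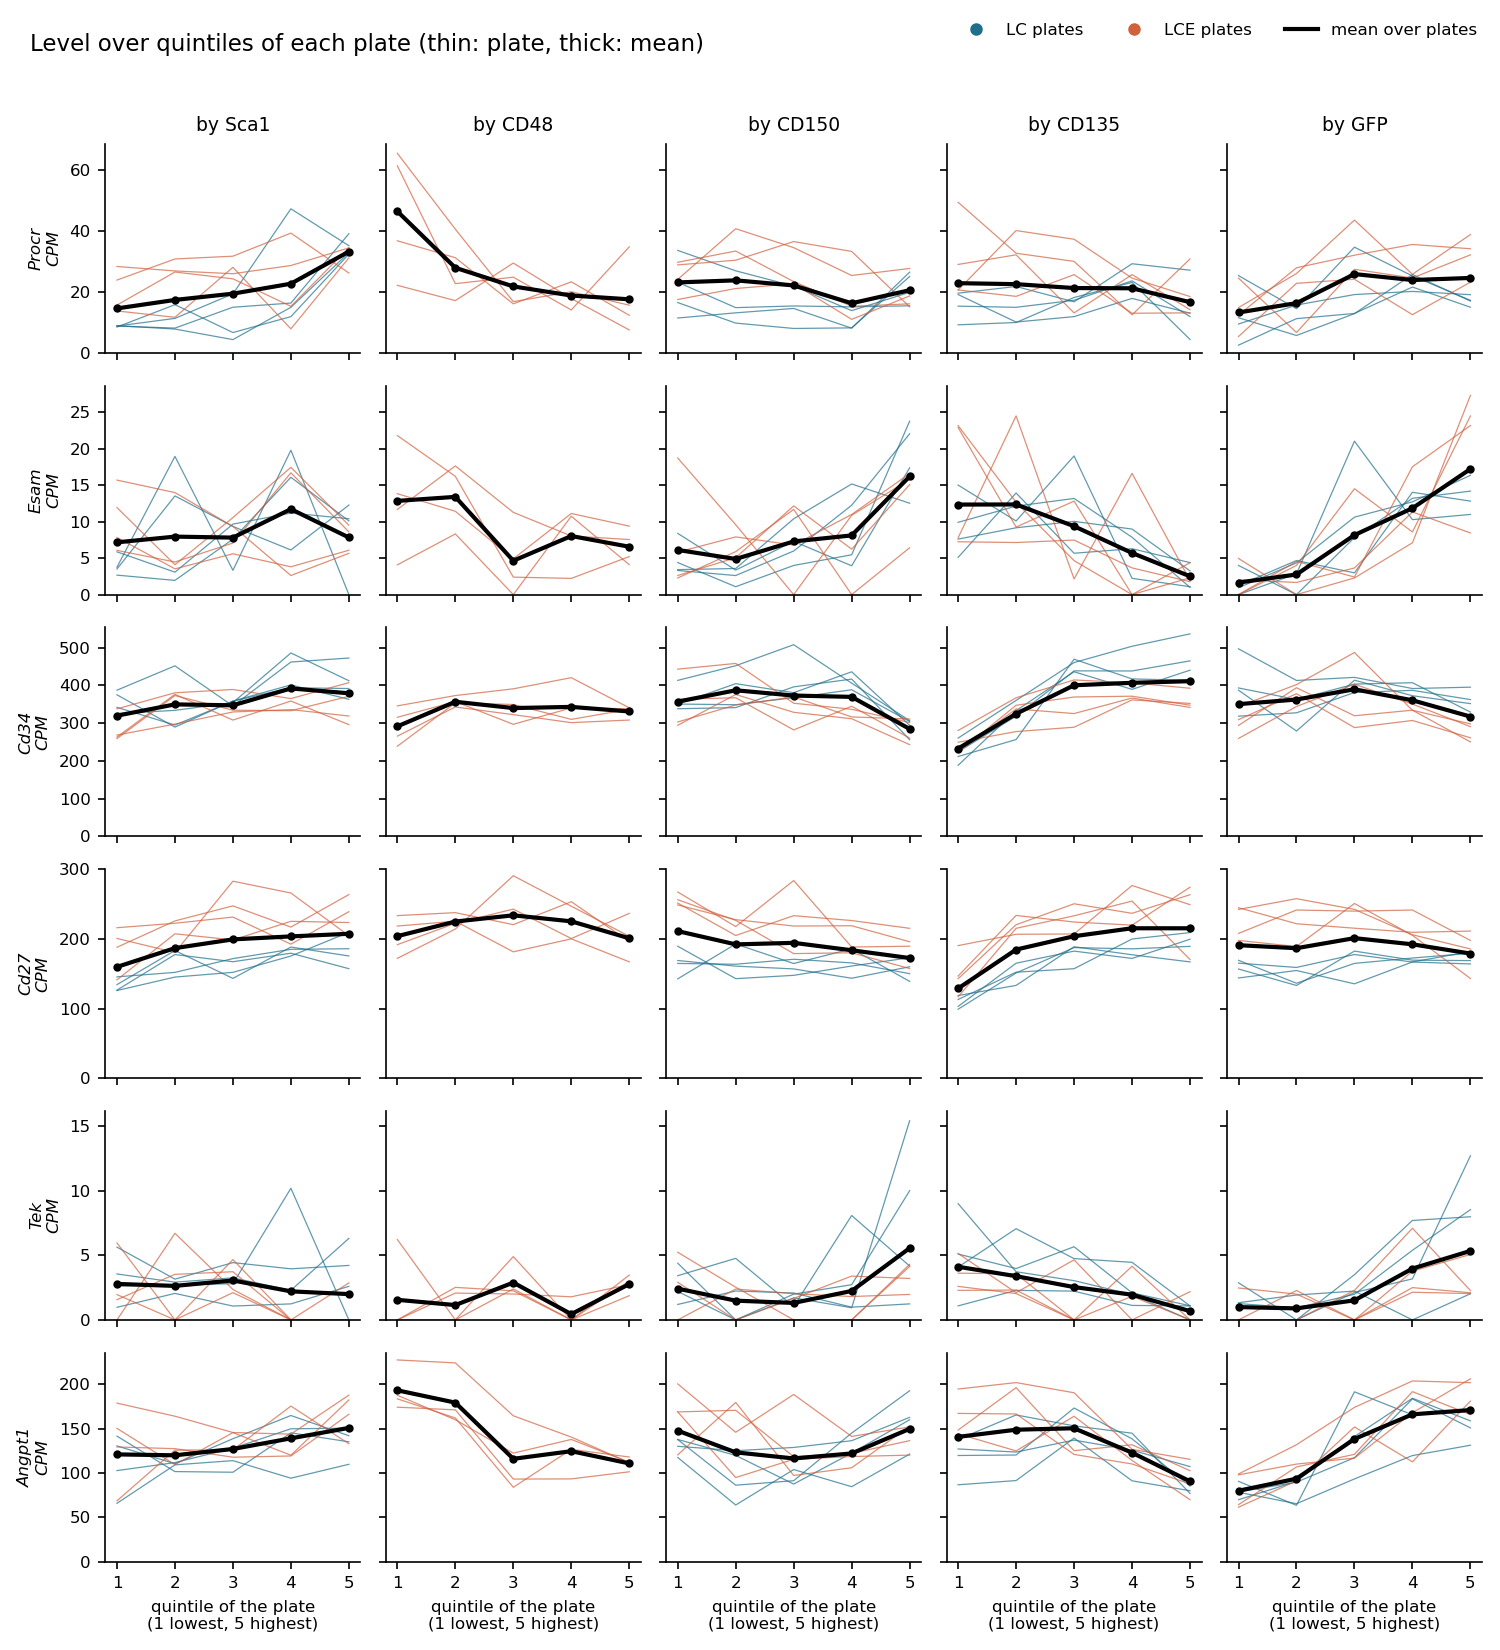
Mean CPM of the 6 members (rows) over quintiles of each sorted protein within a plate (columns, 1 lowest, 5 highest), with thin lines for plates and thick lines for the mean over plates. Esam and Angpt1 climb with GFP, Cd34 and Cd27 level off over the upper CD135 quintiles, and Procr is highest in the lowest CD48 quintile.

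Since the sorted proteins are related, each was also tested with another held, with 4 groups of cells per plate, cut at the medians of both proteins. With CD135 held, GFP-low cells were lower in Angpt1 (-0.88 ± 0.10, edgeR adjusted p = 9.42e-10) and Procr (-0.72 ± 0.19, edgeR adjusted p = 0.00945). Cd34 (-0.25 ± 0.08, edgeR adjusted p = 0.0365) and Cd27 (-0.34 ± 0.09, edgeR adjusted p = 0.02) were lower too, so 4 of 4 tested members passed, where 6.55% of genes did. Esam had 27 counts in GFP-low CD135-high, 16 in GFP-low CD135-low, 40 in GFP-high CD135-high and 151 in GFP-high CD135-low cells, and edgeR with no filter on low counts gave -1.85 for GFP with CD135 held (adjusted p = 6.96e-09). For CD135 with GFP held, the same edgeR test of Esam did not pass (-0.61, adjusted p = 0.28). The calls of Cd34 and Cd27 were lost without the cells of other lineages (edgeR adjusted p = 0.169 and 0.122), and that of Procr without replicate 3 (edgeR adjusted p = 0.0532). Cd34 also missed the threshold without replicate 1, 2, 3, 4 or 7 (edgeR adjusted p from 0.0747 to 0.126) and Cd27 without replicate 1 (0.0562). In fits of 1 plate set alone, chosen after seeing the data, Angpt1 passed on the LC plates (-1.05, edgeR adjusted p = 1.42e-05) and on those named LCE (-0.61, edgeR adjusted p = 0.000153). Cd34 was at -0.38 on LC (edgeR adjusted p = 0.04) and -0.03 on LCE plates (adjusted p = 0.939), Cd27 at -0.48 and -0.15 (adjusted p = 0.0783 and 0.621), and Procr at -0.73 and -0.70 (adjusted p = 0.147 and 0.206). For CD135 with GFP held, Cd34 (0.60 ± 0.08) and Cd27 (0.55 ± 0.10) passed, 2 of 4 members where 8.88% of genes passed, and Angpt1 did not (0.15 ± 0.10, edgeR adjusted p = 0.389). Cd34 and Cd27 also passed in either set alone, with 0.77 and 0.60 on LC and 0.31 and 0.46 on LCE plates.

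With CD150 held, CD135 called 3 of 4 members, where 8.28% of genes passed: Cd34 (0.47 ± 0.05), Cd27 (0.37 ± 0.06) and Angpt1 (-0.27 ± 0.08, edgeR adjusted p = 0.0268). The call of Angpt1 was lost without replicate 3, 5, 6, 7 or 8 (edgeR adjusted p from 0.0792 to 0.103). With CD135 held, CD150 called 0 of 4 members by edgeR, where 1.78% of genes passed, and with GFP held 0 of 4 (2.39% of genes); at an unadjusted p under 0.05 it had Procr with either protein held. GFP with CD150 held called Angpt1 (-0.82 ± 0.06) and Procr (-0.65 ± 0.16), 2 of 4 where 6.17% passed. Sca1 with CD150 held called Procr (0.79 ± 0.18), Cd27 (0.26 ± 0.05), Angpt1 (0.25 ± 0.08) and Cd34 (0.18 ± 0.04), 4 of 4 where 8.22% passed (Angpt1 missed the threshold without replicate 2, 3 or 7, edgeR adjusted p from 0.0795 to 0.0909). CD150 with Sca1 held called 0 of 4 by edgeR, where 1.97% of genes passed, and 0 at an unadjusted p under 0.05. Esam had 40 counts in CD150-high CD135-high, 125 in CD150-high CD135-low, 27 in CD150-low CD135-high and 41 in CD150-low CD135-low cells. With no filter on low counts, edgeR gave Esam -1.17 for CD135 with CD150 held (adjusted p = 0.000118), 0.90 for CD150 with CD135 held (adjusted p = 0.0263), 0.76 for CD150 with GFP held (adjusted p = 0.139), -1.94 for GFP with CD150 held (adjusted p = 1.05e-11) and 1.19 for CD150 with Sca1 held (adjusted p = 0.000197).

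The difference by GFP depended on CD135 for 3 members. Cd34 averaged 415 ± 54.8 CPM in GFP-low cells and 395 ± 74.5 CPM in GFP-high cells above the plate median of CD135, and 223 ± 63.7 and 333 ± 30.001 CPM in GFP-low and GFP-high cells below it. Cd27 averaged 216 ± 34.5 and 208 ± 39.7 CPM in GFP-low and GFP-high cells with high CD135, and 111 ± 46.9 and 187 ± 16.9 CPM with low CD135. For both, the low values were thus in cells low for GFP and CD135 together, where GFP-low CD135-high cells were above GFP-low CD135-low cells on 8 of 8 plates. Angpt1 averaged 102 ± 14.9 CPM in GFP-low cells and 151 ± 20.03 CPM in GFP-high cells with high CD135, and 79.0 ± 33.3 and 172 ± 28.0 CPM with low CD135, lower in GFP-low cells on 8 of 8 plates in both.

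The interaction, the GFP difference (low minus high) among CD135-high cells minus that among CD135-low cells, was 0.76 ± 0.11 for Cd34 (edgeR adjusted p = 6.34e-07), 0.98 ± 0.13 for Cd27 (edgeR adjusted p = 1.89e-07) and 0.77 ± 0.16 for Angpt1 (edgeR adjusted p = 0.000698). It passed for 3 of 4 tested members, where 7.04% of genes passed, and Procr did not pass (0.95 ± 0.37, edgeR adjusted p = 0.112). Without replicate 5 that of Procr passed (1.34, edgeR adjusted p = 0.0247). Tek had 1 count in 332 GFP-low CD135-low cells and 59 counts in 1025 GFP-high CD135-low cells. The interactions of the other 3 pairs of proteins passed for 0 of 12 member tests by edgeR, where 0.0195%, 0.0501% and 0.0585% of genes passed; at an unadjusted p under 0.05, 1 of the 12 did, Angpt1 for CD150 and CD135.

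The estimated interaction was larger in LC than in LCE plates, a split chosen after seeing the data, although the test of that difference did not pass. In 1 fit with an interaction for each set, Cd34 had 0.96 ± 0.11 on LC (edgeR adjusted p = 2.83e-10) and 0.37 ± 0.15 on LCE plates (edgeR adjusted p = 0.367), Cd27 1.35 ± 0.16 (adjusted p = 4.13e-10) and 0.42 ± 0.19 (adjusted p = 0.478), and Angpt1 1.102 ± 0.18 (adjusted p = 8e-06) and 0.24 ± 0.23 (adjusted p = 0.85). These 3 of 4 members thus passed on the LC plates, where 6.11% of genes passed, and 0 of 4 on the LCE plates, where 0.727% did and Cd34 and Cd27 had an unadjusted p under 0.05. The test of the difference (LCE minus LC), which 0.0582% of genes passed, called 0 of 4 members by edgeR: it gave -0.59 ± 0.19 for Cd34 (adjusted p = 0.425), -0.93 ± 0.25 for Cd27 (adjusted p = 0.16) and -0.87 ± 0.29 for Angpt1 (adjusted p = 0.506), all with an unadjusted p under 0.05. In GFP-low CD135-low cells Angpt1 was at 106, 113, 118 and 95.4 CPM on replicates 5 to 8 (LCE) and at 36.2, 43.0, 72.5 and 48.3 CPM on replicates 1 to 4 (LC). Cd27 was at 171, 152, 162 and 117 CPM on the LCE plates and at 47.3, 65.8, 95.2 and 78.1 CPM on the LC plates. Cd34 was at 264, 231, 196 and 347 CPM on the LCE plates and at 228, 216, 154 and 148 CPM on the LC plates. These CPM hold the offset between whole plates, where Cd27 was at 158 to 166 CPM on LC and 196 to 227 CPM on LCE plates.

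The GFP-low CD135-low group, 32 to 54 cells per plate, also held the most cells of other lineages: 49 of 332 (14.8%), 33 of them for the B cell list and 11 for the erythroid list. The shares were 0.975% of GFP-low CD135-high, 0.604% of GFP-high CD135-high and 2.15% of GFP-high CD135-low cells. The B cell list summed to a median of 562 CPM there, with 48.3 to 1735 CPM over plates, and to medians of 63.2 to 86.0 CPM in the other 3 groups. Without these cells the interaction was 0.60 for Cd34 (edgeR adjusted p = 0.000945), 0.86 for Cd27 (edgeR adjusted p = 0.000154) and 0.64 for Angpt1 (edgeR adjusted p = 0.0186).

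**Figure D4:**
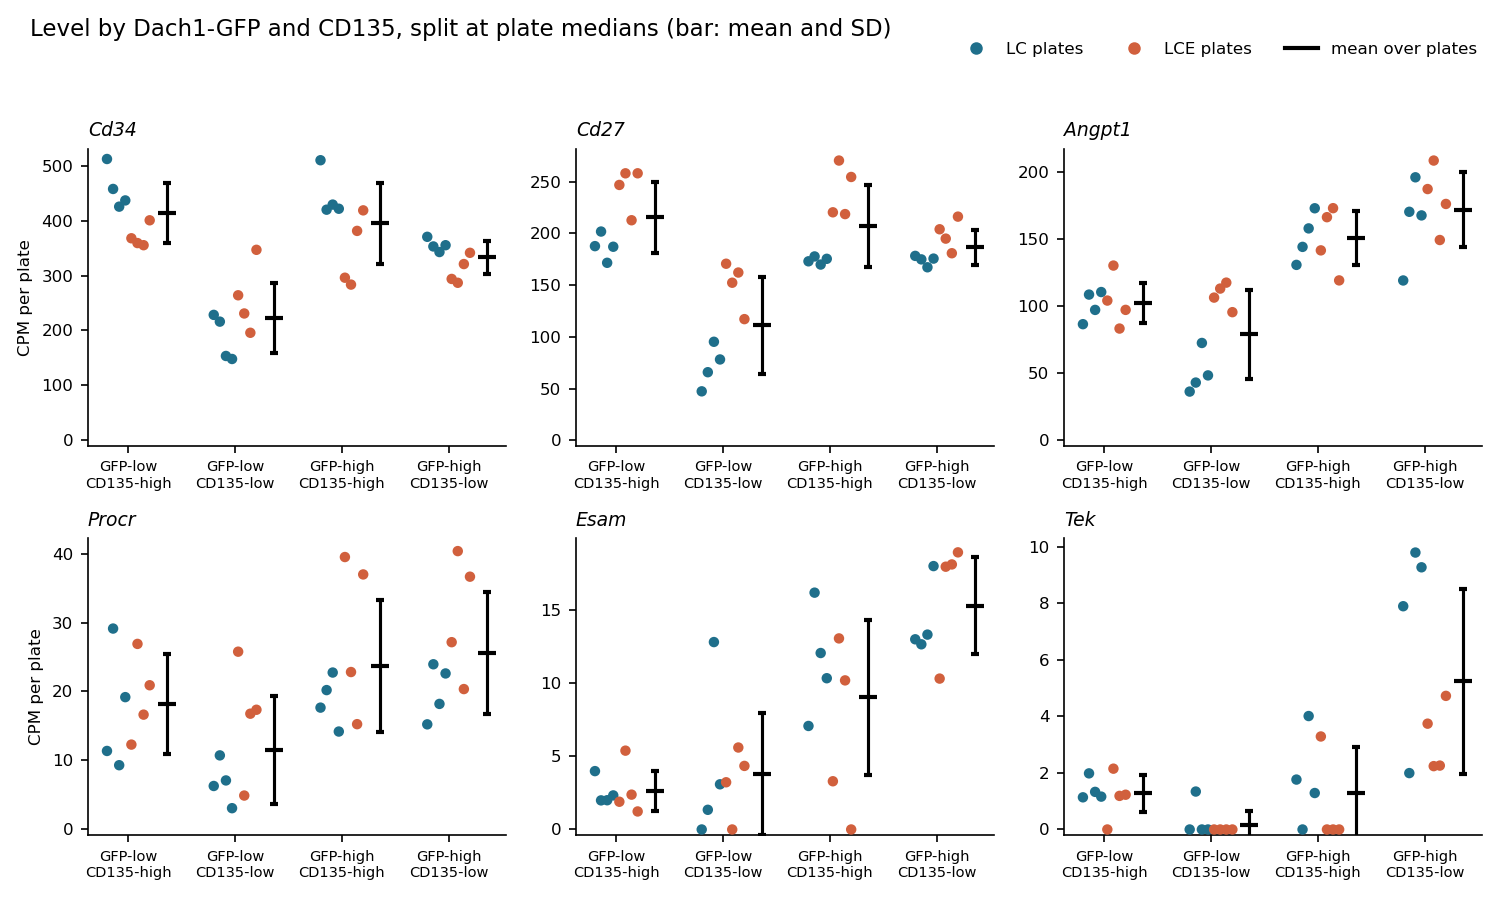
CPM of the 6 members on each plate in 4 groups of cells split at the plate medians of GFP and CD135, with bars for mean and SD over 8 plates. Cd34 and Cd27 are lowest in GFP-low CD135-low cells (means 223 and 111 CPM), Angpt1 is lower in both GFP-low groups than in both GFP-high groups on average, and Tek averages 5.24 CPM in GFP-high CD135-low cells and at most 1.30 CPM in the other 3 groups.

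On the 4 LCE plates, CD135, CD48 and CD150 were combined into 5 groups split at plate medians, as far as rank can stand in for the usual stem cell code. CD135-low CD48-low CD150-high cells, the group nearest to that code (37 to 49 cells per plate), had the lowest Cd34. On replicates 5 to 8 Cd34 was at 195, 258, 205 and 266 CPM in these cells and at 350, 341, 360 and 405 CPM in CD135-high cells. The log2 difference was -0.68 ± 0.11 (edgeR adjusted p = 2.92e-06). Cd34 was also lower than in CD135-low CD48-high CD150-high cells (-0.49 ± 0.12, edgeR adjusted p = 0.00752) and in CD135-low CD48-high CD150-low cells (-0.56 ± 0.15, edgeR adjusted p = 0.0305), and against CD135-low CD48-low CD150-low cells it missed the threshold (-0.51 ± 0.13, edgeR adjusted p = 0.0571).

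The same CD135-low CD48-low CD150-high cells had Angpt1 at 137, 231, 163 and 173 CPM, against 113, 139, 100 and 102 CPM in CD135-high cells (0.60 ± 0.14, edgeR adjusted p = 0.00294). Cd27 was at 156, 157, 143 and 227 CPM there and at 240, 261, 214 and 257 CPM in CD135-high cells (-0.53 ± 0.12, edgeR adjusted p = 0.00294). Procr was at 28.7, 43.1, 19.4 and 65.5 CPM, against 16.0, 24.3, 17.6 and 6.77 CPM in CD135-low CD48-high CD150-high cells (1.24 ± 0.38, edgeR adjusted p = 0.048). Esam, too low to be tested here, averaged 21.8 CPM in these cells, 15.04 CPM in CD135-low CD48-low CD150-low, 10.7 CPM in CD135-low CD48-high CD150-high, 5.44 CPM in CD135-low CD48-high CD150-low and 3.57 CPM in CD135-high cells. In the same order of groups, mean Procr was 39.2, 36.6, 16.2, 34.7 and 21.5 CPM. Mean Angpt1 was 176, 203, 151, 110 and 114 CPM. Procr thus passed against CD135-low CD48-high CD150-high cells alone, and Angpt1 against CD135-high cells alone.

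In all, 6 of 16 member tests between these groups passed: 3 of 4 against CD135-high cells, where 3.12% of genes passed, 2 of 4 against CD48-high CD150-high cells (3.12%), 1 of 4 against CD48-high CD150-low cells (0.846%) and 0 of 4 against CD48-low CD150-low cells by edgeR (0.265%, with Cd34 and Cd27 at an unadjusted p under 0.05). These calls rest on few cells and plates. Leaving out replicate 5 ended those of Cd34 against both CD48-high groups (edgeR adjusted p = 0.149 and 0.305), of Cd27 (0.0731) and of Procr (0.0998). Leaving out replicate 8 ended those of Procr (edgeR adjusted p = 0.67) and of Cd34 against CD48-high CD150-low cells (edgeR adjusted p = 0.195), leaving out replicate 6 those of Procr, Cd27 and Angpt1 (edgeR adjusted p = 0.126, 0.0751 and 0.0727), and leaving out replicate 7 that of Cd34 against CD48-high CD150-low cells (edgeR adjusted p = 0.109). That call was also lost without the cells of other lineages (-0.54, edgeR adjusted p = 0.0583), and Cd34 against CD48-low CD150-low cells passed without replicate 6 (-0.67, edgeR adjusted p = 0.0125).

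**Figure D5:**
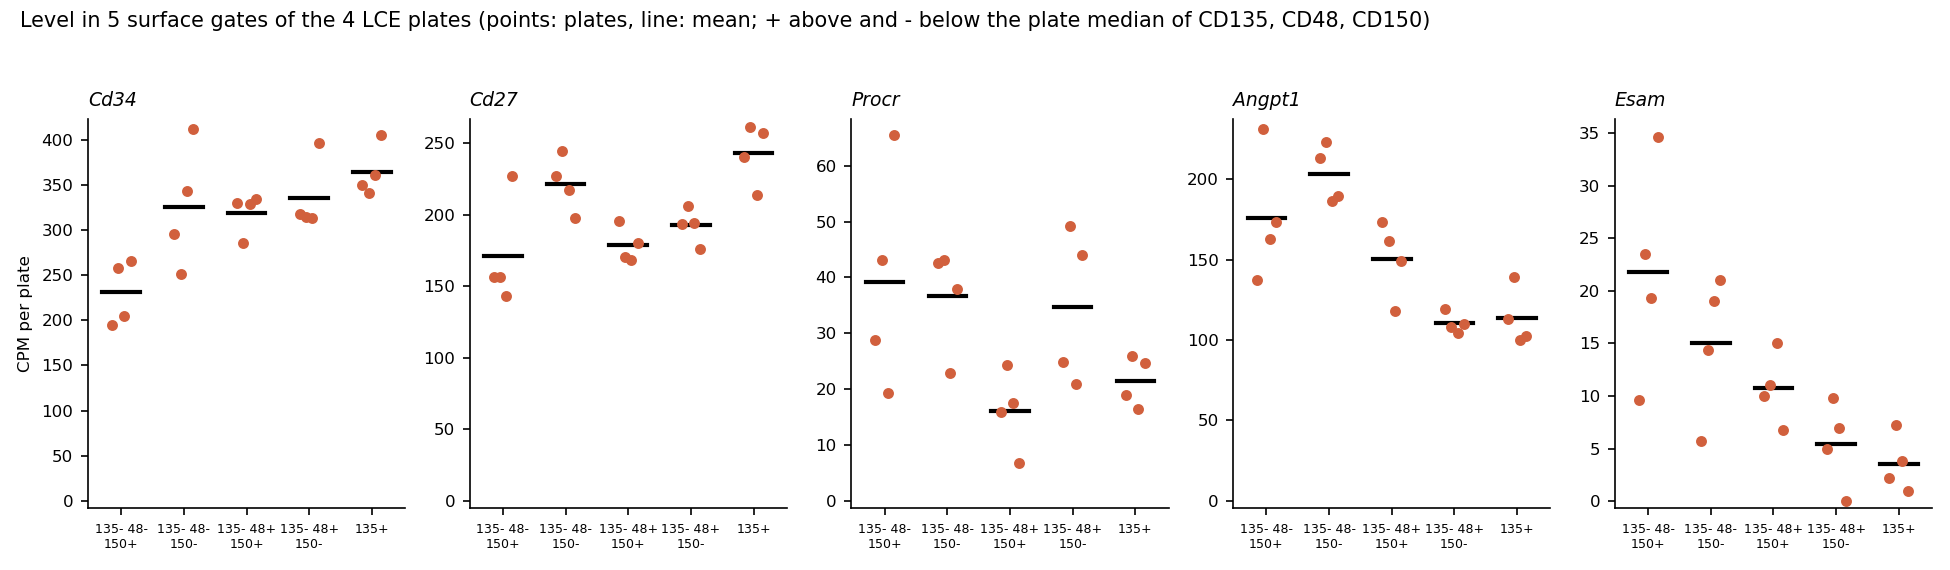
CPM of 5 members in 5 groups of cells on the 4 LCE plates, where plus and minus beside the number of each CD protein stand for above and below its plate median, with points for plates and a line for the mean. Cd34 is lowest (mean 231 CPM) and Esam highest (mean 21.8 CPM) in CD135-low CD48-low CD150-high cells, the leftmost group.

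Whether a difference was of another size on the LCE than on the LC plates was tested for 16 pairs of member and sorted protein. 1 passed, Cd34 by CD135, where 0.635% of genes passed. None of the members passed by Sca1, CD150 or GFP in edgeR's test (0.138%, 0.704% and 0.0872% of genes passed), and 4 of these 12 were under 0.05 before adjustment. Without replicate 1, Angpt1 by CD150 passed as well (-0.63, edgeR adjusted p = 0.0438).

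Other genes of the members' pathways were counted by lists. Of 12 angiopoietin and TIE genes, 7 were tested in each comparison. Tie1, the orphan receptor related to TIE2, averaged 18.8 CPM at low GFP against 44.0 CPM at high GFP (-1.11 ± 0.17), and was also lower with high CD48 (-1.02 ± 0.19) and high CD135 (-0.75 ± 0.17) and higher with high Sca1 (0.50 ± 0.16). Dok2, an adaptor of TIE2 signalling, was higher with high Sca1 (1.30 ± 0.23) and high CD135 (0.89 ± 0.21). Foxo1, a transcription factor that TIE2 signalling restrains in endothelium, was higher in GFP-low cells (0.63 ± 0.19), and Pik3r1, a subunit of PI3 kinase, in CD135-high cells (0.34 ± 0.09). The list thus had 2 higher and 0 lower by Sca1, 0 and 1 by CD48, 0 and 0 by CD150, 2 and 1 by CD135, and 1 and 1 by GFP, with a median log2 difference between -0.22 and 0.13, while the medians over all genes tested lay between -0.0055 and 0.0055.

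Of 9 protein C and thrombin receptor genes 3 were tested. F2r, the thrombin receptor PAR1, was at 13.5 CPM with low GFP against 29.3 CPM with high GFP (-1.19 ± 0.19) and was lower in CD135-high cells (-0.89 ± 0.20), as was S1pr1, a sphingosine phosphate receptor (-0.84 ± 0.26). The list had 0 higher and 2 lower by CD135 (median -0.84), 0 and 1 by GFP (median -0.70), and none past the threshold by Sca1, CD48 and CD150. Of 10 junction genes 4 were tested, and F11r, the junctional molecule JAM-A, was lower in GFP-low (6.28 against 14.8 CPM in GFP-high cells, -1.42 ± 0.29) and in CD48-high cells (-1.12 ± 0.32), the only calls of that list in the 5 comparisons. Of the 6 genes of the selectin and CD34 family list, 2 or 3 were tested. The list had 0 higher and 2 lower by Sca1, 1 and 0 by CD48, and 1 and 0 by CD135. Among these, Selp, the P-selectin, was lower with high Sca1 (-1.15 ± 0.26). Of 8 genes around CD27 6 were tested: Siva1, which binds the tail of CD27, was lower with high Sca1 (-0.33 ± 0.10) and higher with high CD48 (0.61 ± 0.16), and Map3k14, the NIK kinase, was higher with high Sca1 (0.89 ± 0.21). No gene of that list passed by CD150, CD135 or GFP, and none of the selectin and CD34 family list by CD150 or GFP.

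Of 22 other surface genes of stem cells, 15 or 16 were tested. By GFP 3 were higher and 7 lower (median -0.17), among them Itga2b, the integrin CD41 (16.6 CPM with low against 58.7 CPM with high GFP, -1.78 ± 0.15), and Cd9, a tetraspanin (-1.34 ± 0.16). By CD48 1 was higher and 5 lower (median -0.52), with Cd63, a tetraspanin, at -0.89 ± 0.13 and, as the higher one, Cxcr4, the receptor of CXCL12, at 0.85 ± 0.17. By CD135 5 were higher and 5 lower (median 0.0057), with Itga2b at -1.40 ± 0.17 and Calcrl, a receptor subunit for adrenomedullin, at 1.08 ± 0.11. By Sca1 4 were higher and 1 lower (median 0.16) and by CD150 1 and 1 (median 0.03).

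Over 72 bins of cells (CD135 tercile by CD150 tercile on 8 plates, 18 to 72 cells each), Cd34 and Cd27 had the most similar profiles among the members, with Pearson's r = 0.74 across bins of log2(CPM + 1) centred within plates. The bins share their plate, depth and the markers that define them, so these values are descriptive. Angpt1 had r = 0.39 with Procr, 0.37 with Esam and 0.31 with Tek, and Cd34 with Esam had r = -0.08. Among about 7150 genes with at least 20 CPM, the most similar to Angpt1 were Dapp1 (r = 0.68), Meis1 (0.65) and Adgrg1 (0.63), and to Cd34 Gm8292 (0.76), Cd27 and H2afy (0.74). For Cd27 they included Cd34 and Gm8292 (0.74), for Procr Fbxo9 (0.60) and Gm7434 (0.53), and they were for Esam Cd9 (0.52), Tfr2 (0.50) and Acvr1b (0.48), and for Tek Ripor1 (0.49), Abcg2 (0.44) and Hmgb3 (0.43). In sparse counts such as those of Tek and Esam, values of this size are weak.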

How the data were processed

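Transcript counts came from CEL-seq2, a 3′ end method with a barcode per cell, per the labels' protocols. The authors deposited raw counts per gene and well and, for each sorted cell, fluorescence intensity values, also deposited. The submitters' processing notes name GRCh 38 as the build, a human one, although the gene identifiers are mouse, so no coordinates of the files are used. The aligner, the counter and how molecular tags were handled: not given in the sources used here.

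Cells with at least 1000 counts, at least 500 genes and at most 20% mitochondrial counts were kept (2718 of 2996 wells with a sort record). 68 well columns with no sort record were not used. Counts were summed per plate and group of cells, where groups were ranks of intensity within a plate (terciles, sides of the plate median, or quintiles). Sums were tested with edgeR 4.0.16 in R 4.3.3 (filterByExpr, TMM, quasi-likelihood test, plate as replicate block, Benjamini-Hochberg over all genes tested, threshold 0.05) and with DESeq2 1.42.0 as an alternative. An exact two-sided sign-flip permutation test of log2(CPM + 1) ratios was run for all members and is reported for Tek and Esam. The groups of 1 plate share that plate by design, which pairs them. The deviations of paired sums correlated at 0.150 to 0.557 (median 0.287, 36 pairs). No doublet caller was run. Each floor for a sum with 0 counts covers counting error only. The SD over plates and the standard errors also take in variation between plates. Each standard error was worked back from edgeR's test, as the size of the log2 difference divided by the square root of the F statistic.

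The members, the gene lists and the comparisons were chosen with earlier results of these data known. The members are the named genes, and of the pathway lists up to 3 genes per list and comparison past the threshold are named, by size of difference. Some genes that these rules name are not reported here. Alternatives were other scalings, no low-count filter, DESeq2, no replicate block, other splits of the ranks, cells thinned to 3000 counts (which left out 40 cells), no cells of other lineages, a stricter cell filter, intensities corrected for scatter, each plate set alone, and each replicate left out. GFP and CD135 fitted together within each plate set, and the interaction per set, were added after seeing the data.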

Additional observations from a re-analysis of the deposited data

Results flagged for a closer look

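4 results were marked because an effect differed between groups of samples or cells by a test of the difference itself. The difference in Cd34 by CD135 (high minus low) was smaller on the LCE than on the LC plates by edgeR's quasi-likelihood test (-0.45, adjusted p = 0.00369). The difference by Dach1-GFP (low minus high) was unlike among CD135-high and CD135-low cells for Cd34 (0.76, edgeR adjusted p = 6.34e-07), Cd27 (0.98, edgeR adjusted p = 1.89e-07) and Angpt1 (0.77, edgeR adjusted p = 0.000698). In 1 fit with an interaction for each plate set, added after seeing the data, Cd34 had 0.96 on LC and 0.37 on LCE plates, Cd27 1.35 and 0.42, and Angpt1 1.102 and 0.24; these passed on the LC plates, and on the LCE plates none of the 3 did by edgeR (adjusted p = 0.367, 0.478 and 0.85, with Cd34 and Cd27 under 0.05 unadjusted). The test of the difference between the sets did not pass for Cd34, Cd27 or Angpt1 (edgeR adjusted p = 0.425, 0.16 and 0.506). In 30 groups of plates tested for a sample far from the others, 0 were marked.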

How the results depend on the processing

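The counts of members called here include Esam wherever it passed the low-count filter, through the cells in which it is high. They show how calls move with the processing and are no support for Esam, the only member called by CD150 in the main fit. For the fits of 2 proteins, the interaction, the surface groups and the plate sets, shares of all genes are not given per alternative. Scatter correction could be run on the LCE plates only, so its values stand beside those of the LCE plates alone. By Sca1 (4 members) they were 2 with DESeq2, 0 with thinned cells, 0 on the LCE plates alone, 0 there with scatter correction and 3 to 4 with 1 replicate left out. By CD48 (2) they were 1 with DESeq2 and 1 with thinned cells. By CD150 (1) they were 0 with DESeq2 or thinned cells, 2 on the LCE plates alone, 0 there with scatter correction and 0 to 2 with 1 replicate left out. By CD135 (3) they were 3 to 4 with 1 replicate left out, and by GFP (3) 1 with thinned cells and 1 on the LCE plates alone. For CD150 and CD135 adjusted for each other (4) they were 2 to 4 with 1 replicate left out, for GFP and CD135 (7) 3 with terciles, 3 on LCE plates alone and 5 to 7, and for Sca1 and CD150 (5) 2 with terciles and 4 to 5. The GFP and CD135 interaction (3) had 0 on LCE plates alone and 3 to 4, the 5 surface groups (6) 2 with tercile borders and 2 to 5, and LC against LCE plates (1) 2 without other-lineage cells and 1 to 2.

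Without the replicate block, which drops the pairing of cells of 1 plate, members called were 0 by Sca1, 1 by CD48, 0 by CD150, 1 by CD135, 2 for CD150 and CD135, 3 for GFP and CD135, 0 for Sca1 and CD150, 0 for the interaction and 1 for the surface groups.

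Genes called by Sca1 (1194) were 438 with DESeq2, 21 without the block, 201 thinned, 287 on LCE plates, 181 there with scatter correction and 914 to 1257 with 1 replicate left out. By CD48 (1026, LCE plates only) they were 215 with DESeq2, 296 without the block, 477 thinned, 406 scatter-corrected and 633 to 885 (633 without replicate 6, 680 without replicate 8). By CD150 (211) they were, in the same order, 75, 8 and 55, 84 on LC and 467 on LCE plates, 126 on LCE plates with scatter correction, and 147 to 271. By CD135 (1155) they were 603, 165 and 235, 346 on LCE plates, 417 there with scatter correction, and 832 to 1220. By GFP (814) they were 464, 197 and 276, 437 on LC and 503 on LCE plates, 416 on the LCE plates with scatter correction, and 629 to 800.

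Signs turned only for differences that did not pass; the cause was not tested. Cd27 by CD48 (0.03) was -0.0192 unscaled, -0.009 split at the median, -0.0102 with the stricter filter and -0.059 to 0.119 with 1 replicate left out. Angpt1 by CD150 (0.08) was -0.2233 on LCE plates, -0.2008 there with scatter correction, and -0.0275 to 0.1339. Procr by CD135 (-0.21) was 0.2443 on LC plates. Cd27 by GFP (-0.0021) was 0.007 with RLE, 0.0007 unfiltered, 0.0193 with DESeq2, 0.0441 without the block, 0.0858 in outer quintiles, 0.1002 thinned, 0.0482 without other lineages, 0.2153 on LCE plates, 0.2288 there with scatter correction, and -0.0409 to 0.0319. The LCE minus LC difference of Esam by GFP was -0.062 to 0.2406. For CD150 with CD135 held, Cd34 was -0.0449 to 0.0193, Cd27 0.0041 with terciles and -0.0645 to 0.0042, and Angpt1 0.0088 unfiltered, 0.1032 with terciles and -0.0914 to 0.0642. The GFP and CD135 interaction of Esam was -0.3284 on LC plates, -0.1227 without other lineages and -0.3965 to 1.0045. Angpt1 by CD135 with GFP held was -0.1811 on LCE plates, and Procr by CD150 with Sca1 held was 0.1882 with terciles. For CD135-low CD48-low CD150-high cells, Procr was -0.2917 to 0.2768 and Cd27 0.0102 with tercile borders against CD48-low CD150-low, Cd27 -0.238 to 0.0115 against CD48-high CD150-high, and Procr -0.0023 to 0.3161 against CD48-high CD150-low cells. Tek and Esam rest on few counts, and shares of 0 in them reflect depth as well.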
